A study of Mus musculus with 15 samples.

Results

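The D cyclins, the kinases they activate, the inhibitors of those kinases and the retinoblastoma protein form the switch that lets a cell pass from G1 into S phase. The transcripts described here are the 10 genes of that switch named by symbol, Ccnd1, Ccnd2, Ccnd3, Cdk4, Cdk6, Cdkn1a, Cdkn1b, Cdkn2a, Cdkn2c and Rb1, out of 54390 genes in the count tables. All 10 passed the filter on low counts and were among the 14237 genes tested.

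In this switch, growth signals raise the D cyclins, which bind CDK4 or CDK6, and the active kinase phosphorylates RB1 and frees the E2F factors that drive genes of DNA replication. Proteins of the INK4 family, among them p16 from Cdkn2a and p18 from Cdkn2c, bind CDK4 and CDK6 directly, whereas p21 (Cdkn1a) and p27 (Cdkn1b) act on cyclin-CDK complexes, chiefly those of CDK2. In macrophages, colony-stimulating factor signalling is a well known inducer of D cyclins.

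The cells were BV2, a mouse microglial line immortalised with a retrovirus carrying raf and myc oncogenes, and RNA was sequenced in bulk. WT cells were kept in media alone (non-foamy, n = 4) or given soluble cholesterol at 20 μg/ml overnight (foamy, n = 4), and Trem2-/- cells were treated alike (non-foamy, n = 3, and foamy, n = 4). The Trem2-/- line came from Cas9-expressing BV2 cells, themselves a single clone, and was isolated by limiting dilution of single cells, so that differences between clones and the loss of Trem2 cannot be told apart. Whether the WT cells carried Cas9 is not stated in the sources used here. The cholesterol was carried by methyl-beta-cyclodextrin and the non-foamy cells had media alone, so that carrier and cholesterol cannot be told apart either. Nothing in the labels says that libraries of a group came from separate cultures, so the p-values measure the spread between these samples only, which may be technical. Libraries held 23538963 to 41683825 counted reads.

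Trem2 itself checks the genotype labels. It stood at 354 ± 41.2 CPM (counts per 1000000 counted reads, scaled by TMM factors; mean ± SD, n = 4) in WT non-foamy cells and 222 ± 8.79 (n = 3) in Trem2-/- non-foamy cells. With cholesterol the levels were 373 ± 26.4 (n = 4) and 224 ± 4.56 (n = 4). The transcript was thus 1.59-fold lower in the Trem2-/- line without cholesterol and 1.66-fold lower with it (edgeR adjusted p = 2.85e-07 and 7.09e-08), the libraries of the genotypes did not overlap, and RNA remained in every Trem2-/- library.

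The macrophage markers were present in part. Of 15 listed genes, Tyrobp averaged 1496 CPM and Cd68 1449 CPM, while Sall1 was at 0 in every library and Tmem119, C1qa and Fcrls stayed under 1 CPM in every library. The summed level of the 15 genes was 3818 ± 350.0 CPM in WT cells without cholesterol and 4143 ± 207 with it, and in Trem2-/- cells 5374 ± 114 without and 5386 ± 114 with it. That sum is carried by its abundant genes, and the weakly expressed Cx3cr1 and P2ry12 ran the other way (1.54 and 1.74 CPM in WT, 0.30 and 0.60 CPM in Trem2-/- non-foamy cells). All 5 fibroblast markers were at 0, and among the lists of neurons, astrocytes, oligodendrocytes, endothelium and lymphocytes the most abundant gene was Kdr (8.44 CPM in WT non-foamy and 2.10 in Trem2-/- non-foamy cells). Every listed marker of neurons, astrocytes and lymphocytes stayed under 1 CPM in every library.

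Some libraries stood apart within their groups. Ribosomal protein genes took 15.9% of the counts in WT non-foamy library 3 against 12.9 to 13.2% in the other 3. By the chi-square of its counts that library was also the farthest of its group. It had 31.1 to 40.1 per gene, against 6.36 to 7.58 among the other 3, and held the fewest counted reads of all libraries. Among the WT foamy libraries the share was lowest in library 1 (12.8%) and highest in library 3 (15.3%), with 14.1% and 14.7% in libraries 2 and 4, and library 1 was the farthest from the others by the chi-square of its counts (19.0 to 45.2 per gene, against 8.38 to 15.7 among the other 3). In the Trem2-/- libraries this share was 15.2 to 16.5%. Trem2-/- foamy library 4 was the farthest of its group (15.5 to 24.6 per gene, against 6.83 to 10.8 among the other 3) and had the highest share of mitochondrial counts of all libraries (8.05%). The counts of called genes, lists included, were therefore also computed without both WT libraries numbered 3, without WT foamy library 1 and without Trem2-/- foamy library 4. The same members were called each time in the comparisons that use those libraries, except that Cdkn2a was added to the interaction without Trem2-/- foamy library 4. Calls gained or lost in the list counts given here stand beside those counts. The part of the ribosomal share in the differences was not tested.

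The D cyclins are close relatives, and the counts of 1 could hold reads of another if their transcripts shared long runs. The stretch of 60 coding bases at which they are most alike is shown to make that visible, with capitals at the 45 positions where all 3 carry the same base. It lies in exon 2 of Ccnd1 (chr7:144938043-144938102, minus strand), exon 2 of Ccnd2 (chr6:127148820-127148879, minus strand) and exon 4 of Ccnd3 (chr17:47594734-47594793, plus strand), in GENCODE M21 transcripts on GRCm38.
Ccnd1: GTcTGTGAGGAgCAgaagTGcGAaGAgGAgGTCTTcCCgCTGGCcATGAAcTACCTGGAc
Ccnd2: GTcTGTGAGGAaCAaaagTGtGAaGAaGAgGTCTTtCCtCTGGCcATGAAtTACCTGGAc
Ccnd3: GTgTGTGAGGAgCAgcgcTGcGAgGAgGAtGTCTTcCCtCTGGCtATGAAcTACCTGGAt
Within this stretch Ccnd1 and Ccnd2 were identical at 88.3% of the bases, Ccnd1 and Ccnd3 at 85% and Ccnd2 and Ccnd3 at 76.7%. Over their whole transcripts the longest run shared by Ccnd1 and Ccnd2 was 20 bases, by Ccnd1 and Ccnd3 17 and by Ccnd2 and Ccnd3 14. No D cyclin therefore shared a run of 50 bases with another.

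Of the 10 genes, 7 can instead share reads with a neighbour on the opposite strand, since the strand setting of the counting is not stated in the sources used here. Of the exonic bases of Ccnd1 (ENSMUSG00000070348, chr7:144929931-144939925), 23.4% overlap LTO1, whose own level was 7.37 ± 0.75 CPM in WT non-foamy and 9.31 ± 1.23 CPM in Trem2-/- non-foamy cells. For Ccnd2 (ENSMUSG00000000184, chr6:127125162-127152193) the overlap was 7.86%, with genes at or under 0.172 CPM on average in each group. For Ccnd3 (ENSMUSG00000034165, chr17:47505051-47599691) it was 4.11%, with Bysl. Apart from overlapping neighbours, Ccnd3, Cdk4, Cdk6 and Cdkn1a shared runs of 50 bases with other genes, for Ccnd3 among them Ccnd3-ps.

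Among the kinases, Cdk4 (ENSMUSG00000006728, chr10:127063534-127067920) overlapped Tspan31 over 19.7% of its exonic bases and Cdk6 (ENSMUSG00000040274, chr5:3341485-3531008) a weakly counted gene over 2.63%. Rb1 (ENSMUSG00000022105, chr14:73183673-73325822) overlapped Rcbtb2 and Lpar6 over 14.9%. Cdkn1a (ENSMUSG00000023067, chr17:29090976-29100727) had an overlap of 7.68%. Cdkn1b (ENSMUSG00000003031, chr6:134920401-134925513), Cdkn2a (ENSMUSG00000044303, chr4:89274471-89294653) and Cdkn2c (ENSMUSG00000028551, chr4:109660876-109667189) overlapped no other gene's exons. Gene counts of Cdkn2a cannot separate p16 from p19Arf, which share exons.

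The promoter table of RefSeq (GRCm38.p6) matched 7 of the 10 genes and not Ccnd1, Ccnd2 or Rb1. Promoters of Cdk4, the most abundant of the genes, and Cdkn1b, the inhibitor that was higher in Trem2-/- cells in both conditions, are shown over the 250 bases before the start, with capitals at matches of an E-box (CACGTG, which reads the same on both strands) or a GC box (GGGCGG, either strand). They lie at chr10:127063285-127063534 and chr6:134920151-134920400, both on the plus strand.
Cdk4: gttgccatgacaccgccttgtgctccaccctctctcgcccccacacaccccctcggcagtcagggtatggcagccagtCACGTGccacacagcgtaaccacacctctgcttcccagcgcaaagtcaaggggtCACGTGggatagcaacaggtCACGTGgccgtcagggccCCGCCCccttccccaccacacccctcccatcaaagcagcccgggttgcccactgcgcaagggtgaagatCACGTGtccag
Cdkn1b: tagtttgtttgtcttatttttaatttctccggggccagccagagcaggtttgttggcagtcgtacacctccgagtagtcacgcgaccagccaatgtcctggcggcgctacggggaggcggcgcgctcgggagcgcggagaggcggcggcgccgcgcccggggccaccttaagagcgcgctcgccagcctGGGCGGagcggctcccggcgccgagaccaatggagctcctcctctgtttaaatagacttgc
The Cdk4 promoter held 4 E-boxes, a letter run to which the MYC family binds, and 1 GC box, and the Cdkn1b promoter held 1 GC box. Of 32851 promoters searched over the same length, 6.02% held at least 1 CACGTG, 7 promoters (0.0213%) held 4 or more, and 32.7% held GGGCGG. Besides Cdk4, the promoter of Cdk6 held 1 CACGTG. The E2F letters TTTCGCGC, TTTGGCGC and TTCCCGCC, present in 2.48% of promoters as a set, were in none of the 11 entries of the 7 genes. The AP-1 letters TGANTCA (6.75% of promoters) and the CRE letters TGACGTCA (1.55%) were in none of them either. All were searched on both strands, and GGGCGG can share bases with TTCCCGCC.

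Levels per length, in CPM per kb of exonic sequence averaged over the 15 libraries, spread over a wide range. The length is that of all annotated exons of a gene merged. Ranks between genes thus depend on which transcripts the cells make, which was not tested. Cdk4 led with 95.8, followed by Cdkn2a with 51.7 and Cdkn1a with 16.5. Cdkn1b (8.95), Ccnd3 (6.98), Rb1 (6.29) and Ccnd1 (6.17) formed a middle range in which neighbours differed little. Cdkn2c (4.32), Cdk6 (3.40) and Ccnd2 (3.005) were lowest. In WT non-foamy cells the order was otherwise for the cyclins, with Ccnd1 at 9.84 ± 1.21 and Ccnd3 at 8.79 ± 0.55 within their spread of each other and Ccnd2 at 5.62 ± 0.72.

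**Figure D1:**
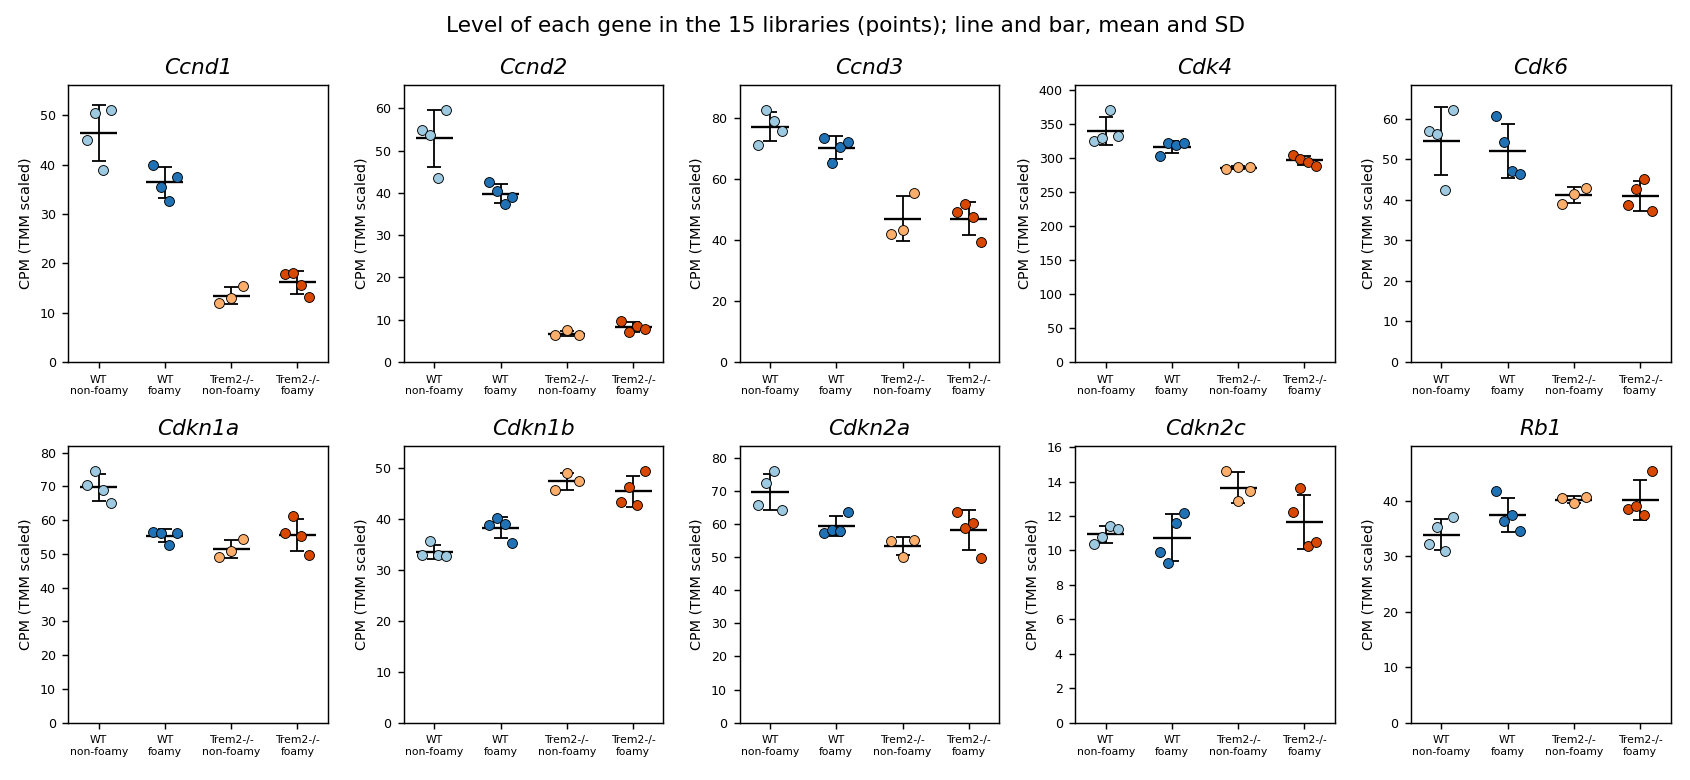
Level of the 10 genes in CPM scaled by TMM factors (vertical axes from 0), 1 point per library, by genotype and treatment; lines and bars are the mean and SD. Every Trem2-/- library lies below every WT library for Ccnd1, Ccnd2 and Ccnd3 and above every WT library for Cdkn1b.

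The comparison of the lines without cholesterol asked how the switch differed between Trem2-/- and WT cells. All 3 D cyclins, both kinases and the inhibitor genes Cdkn1a and Cdkn2a were lower in Trem2-/- cells, and Cdkn1b, Cdkn2c and Rb1 were higher. All 10 genes passed the test (edgeR quasi-likelihood, Benjamini-Hochberg adjusted p under 0.05), 7 lower and 3 higher, in a comparison in which 43.6% of all tested genes were called, 21% higher and 22.6% lower. The median log2 fold change of the 10 was −0.40, against 0.02 over all tested genes. The libraries of the groups did not overlap for 9 of the 10, the exception being Cdk6, 6 lower and 3 higher, against 46.1% of all tested genes (23.5% lower and 22.6% higher).

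Ccnd2 differed most. In WT non-foamy cells its levels in libraries 1 to 4 were 54.8, 53.7, 43.5 and 59.6 CPM. The 3 Trem2-/- non-foamy libraries had 6.38, 7.43 and 6.26 CPM, which is 189 to 224 counts. Every WT library was several times above every Trem2-/- library, and the fitted level was 7.93-fold lower in Trem2-/- cells (log2 fold change −2.99, s.e. 0.12, edgeR adjusted p = 2.63e-14).

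Ccnd1, the D cyclin induced by growth factors in many cell types, followed. Its levels were 44.9, 50.5, 38.9 and 51.0 CPM in the WT non-foamy libraries and 11.9, 13.03 and 15.3 CPM in the Trem2-/- non-foamy libraries. The groups were far apart, with a level 3.47-fold lower in Trem2-/- cells (log2 fold change −1.79, s.e. 0.12, edgeR adjusted p = 1.16e-10).

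Ccnd3, which is expressed in most dividing blood cells, was lower by less. The WT non-foamy libraries had 71.3, 82.6, 79.0 and 75.8 CPM and the Trem2-/- non-foamy libraries 41.9, 43.4 and 55.5 CPM. The lowest WT library was above the highest Trem2-/- library, and the level was 1.64-fold lower (log2 fold change −0.72, s.e. 0.10, edgeR adjusted p = 2.05e-06). Bysl, which overlaps it in part, was also lower (log2 fold change −0.98, edgeR adjusted p = 2.44e-06), and the part of shared reads was not tested.

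Among the kinases, Cdk4 stood at 326, 330.1, 371 and 333 CPM in the WT non-foamy libraries and at 284, 287 and 287 CPM in the Trem2-/- ones. The Trem2-/- libraries were tightly grouped below all 4 WT libraries, for a difference of −0.25 on the log2 scale (s.e. 0.06, edgeR adjusted p = 0.00157). Cdk6 had 56.9, 56.4, 42.5 and 62.2 CPM in WT and 39.1, 41.6 and 42.9 CPM in Trem2-/- cells. WT library 3 lay among the Trem2-/- libraries, and the log2 fold change was −0.41 (s.e. 0.11, edgeR adjusted p = 0.00379).

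The inhibitors divided. Cdkn1b, which encodes p27, had 32.9, 35.6, 32.9 and 32.8 CPM in the WT non-foamy and 45.7, 49.0 and 47.3 CPM in the Trem2-/- non-foamy libraries. Its level was 1.41-fold higher in Trem2-/- cells, with no overlap (log2 fold change 0.50, s.e. 0.07, edgeR adjusted p = 4.90e-06). Cdkn2c, which encodes p18, was 10.9 ± 0.47 CPM in WT and 13.6 ± 0.90 CPM in Trem2-/- cells (log2 fold change 0.32, s.e. 0.11, edgeR adjusted p = 0.0272).

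Cdkn1a and Cdkn2a went the other way. Cdkn1a, a p53 target that encodes p21, had 70.4, 74.6, 68.8 and 65.0 CPM in WT and 49.0, 50.9 and 54.5 CPM in Trem2-/- non-foamy libraries (log2 fold change −0.44, s.e. 0.07, edgeR adjusted p = 3.05e-05). Cdkn2a had 65.8, 72.3, 76.1 and 64.4 CPM in WT and 54.9, 50.2 and 55.1 CPM in Trem2-/- libraries (log2 fold change −0.38, s.e. 0.08, edgeR adjusted p = 0.00047). Neither gene's groups overlapped.

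Rb1 was 33.9 ± 2.81 CPM in WT non-foamy and 40.3 ± 0.58 CPM in Trem2-/- non-foamy cells (log2 fold change 0.25, s.e. 0.08, edgeR adjusted p = 0.0207). Rcbtb2, which overlaps 488 of its exonic bases, rose from 202 ± 23.9 to 439 ± 16.5 CPM in the same comparison, and Lpar6 from 35.8 ± 4.14 to 64.9 ± 6.92 CPM. The part of shared reads in the Rb1 difference was not tested. The calls of Cdkn2c and Rb1 were the least firm, each lost in 5 of 15 alternative fits. With libraries scaled by total counts alone they were 0.18 (edgeR adjusted p = 0.231) and 0.10 (edgeR adjusted p = 0.442), a scaling in which the median of all tested genes moved to −0.13 and the split of all called genes from 2985 higher and 3222 lower to 1820 higher and 4379 lower. With single libraries left out, Cdkn2c missed the threshold without WT libraries 1 or 2 or Trem2-/- libraries 1 or 3 (edgeR adjusted p = 0.0528 to 0.124), and Rb1 without WT libraries 1 or 3 or Trem2-/- libraries 1 or 3 (edgeR adjusted p = 0.0510 to 0.0613). Without both WT libraries numbered 3 the same 7 lower and 3 higher calls were made.

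**Figure D2:**
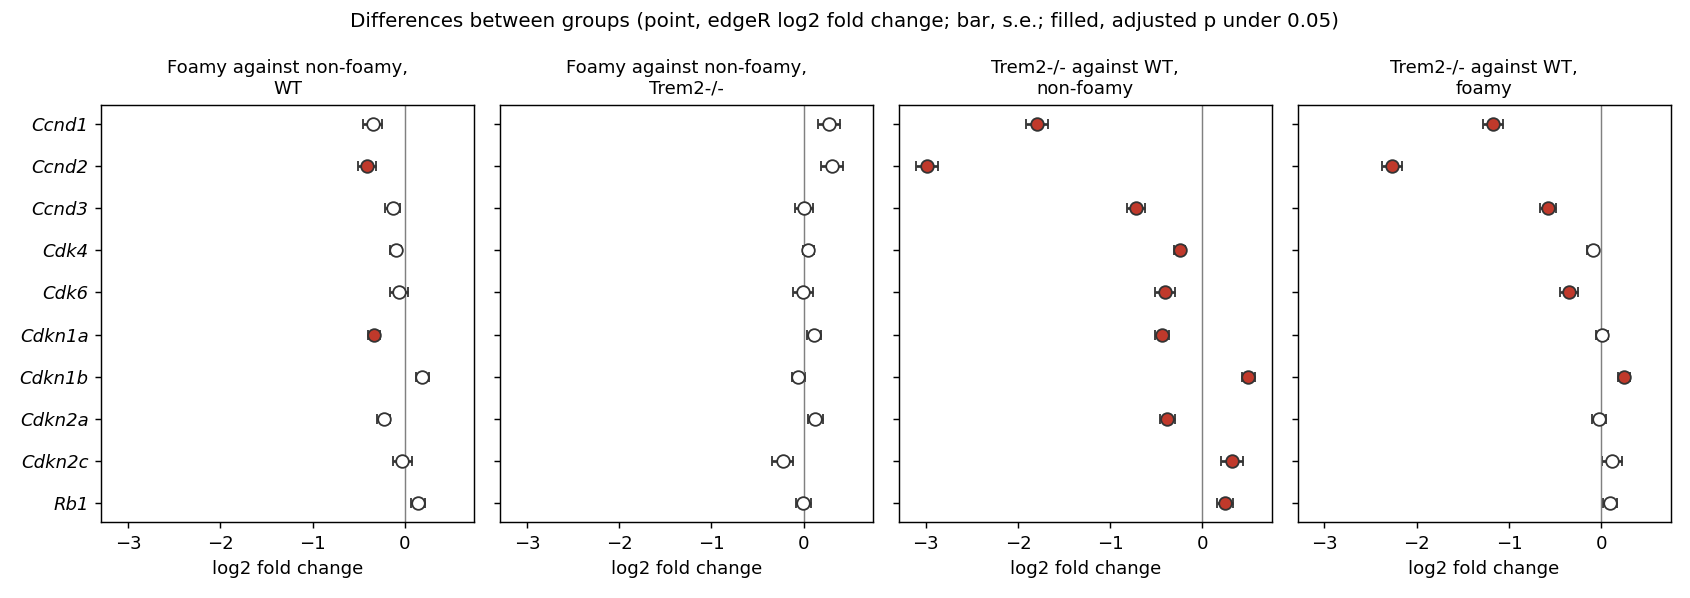
Log2 fold change of each gene (horizontal axis; point, edgeR estimate; bar, s.e.) in 4 comparisons, foamy against non-foamy within each genotype and Trem2-/- against WT within each treatment; filled points have an adjusted p under 0.05. All 10 points are filled for the non-foamy lines, 5 for the foamy lines, 2 for the response of WT cells and 0 for the response of Trem2-/- cells.

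In the foamy state the D cyclins and Cdk6 were still lower in Trem2-/- cells and Cdkn1b was still higher, while the other 5 genes did not pass the test. The 5 calls compare with 30.2% of all tested genes called (14.3% higher and 15.9% lower). The libraries did not overlap for the same 5 genes, against 28.8% of all tested genes (13.8% higher and 15% lower). The median log2 fold change of the 10 genes was −0.06, against 0.0003 over all tested genes. The same 5 genes were called without both WT libraries numbered 3, 4 lower and 1 higher.

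Ccnd2 had 42.6, 40.4, 37.4 and 39.0 CPM in the WT foamy libraries and 9.65, 7.12, 8.54 and 7.69 CPM in the Trem2-/- foamy libraries. It was 4.82-fold lower in Trem2-/- cells (log2 fold change −2.27, s.e. 0.10, edgeR adjusted p = 5.87e-13). Ccnd1 had 40.003, 35.5, 32.6 and 37.5 CPM against 17.8, 18.03, 15.6 and 13.1 CPM, a level 2.25-fold lower (log2 fold change −1.17, s.e. 0.11, edgeR adjusted p = 3.31e-08). For both cyclins every Trem2-/- library remained below every WT library.

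Ccnd3 had 73.6, 65.1, 70.5 and 72.0 CPM in WT foamy and 49.0, 51.9, 47.6 and 39.2 CPM in Trem2-/- foamy libraries, again without overlap (log2 fold change −0.58, s.e. 0.09, edgeR adjusted p = 2.37e-05). Cdk6 was 52.1 ± 6.68 CPM in WT and 41.0 ± 3.69 CPM in Trem2-/- cells (log2 fold change −0.35, s.e. 0.10, edgeR adjusted p = 0.0103). Its libraries did not overlap either, although the lowest WT library (46.4 CPM) was close to the highest Trem2-/- library (45.2 CPM).

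Cdkn1b had 38.7, 40.1, 38.9 and 35.3 CPM in WT foamy and 43.2, 46.2, 42.8 and 49.4 CPM in Trem2-/- foamy libraries. Its difference was 0.25 on the log2 scale (s.e. 0.07, edgeR adjusted p = 0.00614), and it was 0.11 (edgeR adjusted p = 0.240) when libraries were scaled by total counts alone. Under that scaling the split of all called genes moved from 2036 higher and 2261 lower to 1115 higher and 3666 lower, and Cdk4 passed the test (−0.22, edgeR adjusted p = 0.000682).

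The remaining inhibitors and Rb1 were near each other in the foamy lines. Cdkn1a was 55.4 ± 1.93 CPM in WT and 55.6 ± 4.72 CPM in Trem2-/- cells (log2 fold change 0.0063, s.e. 0.07, edgeR adjusted p = 0.956), and Cdkn2a was 59.3 ± 2.999 and 58.2 ± 5.997 CPM (−0.03, s.e. 0.07, edgeR adjusted p = 0.832). Cdkn2c (0.12, s.e. 0.11) and Rb1 (0.10, s.e. 0.08) also missed the threshold, as did Cdk4 (−0.09, s.e. 0.05).

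The response to cholesterol within each genotype asked whether the switch differed between treated and untreated cells. Cholesterol here and below stands for cholesterol with its carrier, which cannot be told apart. Sterol genes were read beside the switch as a control of loading. In WT cells the cholesterol exporters Abca1 and Abcg1 rose by 0.82 and 0.76 on the log2 scale (edgeR adjusted p = 2.998e-05 and 8.80e-05) and Cyp51, a cholesterol synthesis enzyme, fell by 0.78 (edgeR adjusted p = 1.56e-08). In Trem2-/- cells the values ran opposite to those in WT cells, so these genes do not show loading there: Abca1 fell by 0.49 (edgeR adjusted p = 0.0478, a call lost without Trem2-/- foamy library 4), Cyp51 rose by 0.53 (edgeR adjusted p = 7.76e-05) and Abcg1 had −0.44 (edgeR adjusted p = 0.169, called lower without both WT libraries numbered 3). Trem2-/- cells without cholesterol already stood beyond WT foamy cells in all 3 genes, with Abca1 at 82.7 against 60.7 CPM, Abcg1 at 99.4 against 72.1 CPM and Cyp51 at 43.8 against 78.1 CPM. The Trem2-/- responses and the interaction values start from that level. In WT cells 2 of the 10 genes passed the test, Ccnd2 and Cdkn1a, both lower, while 2.8% of all tested genes were called, 1.66% higher and 1.14% lower. The libraries did not overlap for 4 genes, all lower in foamy cells (Ccnd2, Cdkn1a, Cdkn2a and Cdk4), against 9.71% of all tested genes (5.16% lower and 4.56% higher). The median over the 10 was −0.12, against 0.01 over all tested genes.

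Ccnd2 fell from 52.9 ± 6.78 CPM in WT non-foamy to 39.9 ± 2.19 CPM in WT foamy cells, a level 1.33-fold lower (log2 fold change −0.41, s.e. 0.09, edgeR adjusted p = 0.0190). This call was lost in 5 of 16 alternative fits: with total counts alone (edgeR adjusted p = 0.0562) and without WT non-foamy libraries 1, 2 or 4 (0.0699, 0.0505 and 0.0817) or WT foamy library 2 (0.0646). Cdkn1a fell from 69.7 ± 3.97 to 55.4 ± 1.93 CPM (log2 fold change −0.33, s.e. 0.07, edgeR adjusted p = 0.00625), and kept its call in all 16. Both calls were also made without the WT libraries numbered 3.

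Ccnd1 had a WT response of −0.35 (s.e. 0.10), close to the value for Cdkn1a, with an edgeR adjusted p of 0.0702. DESeq2 gave it 0.0211, and edgeR with no filter on low counts gave 0.00665. Leaving out WT non-foamy library 3, whose 38.9 CPM lay inside the foamy range, gave an edgeR adjusted p of 0.0207. It passed in only that 1 of 8 fits with a single library left out, with edgeR adjusted p values up to 0.193. Cdkn2a had −0.23 (s.e. 0.07, edgeR adjusted p = 0.0906, DESeq2 adjusted p = 0.0410). The other 6 genes had responses between −0.13 (Ccnd3) and 0.19 (Cdkn1b).

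In Trem2-/- cells cholesterol moved none of the 10 genes past the threshold in edgeR or in DESeq2, in a comparison in which 0.14% of all tested genes were called by edgeR (0.105% higher and 0.0351% lower). At an unadjusted edgeR p under 0.05 there were 2 genes, Ccnd1 (log2 fold change 0.27, s.e. 0.12) and Ccnd2 (0.31, s.e. 0.12), both higher in foamy cells, where 918 of the 14237 tested genes had such a p. Only 1 gene, Cdk4, had libraries that did not overlap, higher in foamy cells, against 9.26% of all tested genes (5.38% higher and 3.88% lower). The median over the 10 was 0.03, against 0.0045 over all tested genes.

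The difference between these responses was tested as the interaction of genotype and cholesterol, which uses the same libraries as the comparisons above. It was higher in Trem2-/- cells for 3 of the 10 genes, Ccnd2, Ccnd1 and Cdkn1a, while 3.64% of all tested genes were called, 1.99% higher and 1.64% lower. Ccnd2 had a response of −0.41 in WT and 0.31 in Trem2-/- cells, a difference of 0.72 (s.e. 0.15, edgeR adjusted p = 0.0107). For Cdkn1a the responses were −0.33 and 0.11, a difference of 0.44 (s.e. 0.10, edgeR adjusted p = 0.0132).

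For Ccnd1 the responses were −0.35 and 0.27, and the difference of 0.62 (s.e. 0.16, edgeR adjusted p = 0.0319) was the weakest of these calls: it was lost in 11 of 22 alternative fits, with edgeR adjusted p values from 0.00879 to 0.118 as single libraries were left out. The libraries without which it was lost were WT non-foamy 1, 2 and 4, WT foamy 2 and 3, Trem2-/- non-foamy 1 and 2 and Trem2-/- foamy 1 and 2. The call of Cdkn1a was lost without Trem2-/- non-foamy library 1 (edgeR adjusted p = 0.0579). Cdkn2a had a difference of 0.36 (s.e. 0.11, edgeR adjusted p = 0.0702). It passed with DESeq2 (adjusted p = 0.0314), and in edgeR with no filter (adjusted p = 0.0453). It also passed in edgeR without foamy library 4 of WT (0.0474) or of Trem2-/- cells (0.0163). These were the only 2 of 15 fits with a single library left out in which Cdkn2a passed, and edgeR adjusted p values there reached 0.191. The differences of Cdkn1b (−0.25), Cdkn2c (−0.20) and Rb1 (−0.15) were below 0 and did not pass the test. Without both WT libraries numbered 3 the 3 calls were made again.

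Levels per length describe the makeup of the D cyclin transcripts in each line. The merged exons are 4709 bases long for Ccnd1, 9409 for Ccnd2 and 8775 for Ccnd3, while their coding parts have 888, 870 and 879. Sums, and shares of one cyclin against another, depend on these lengths, which are the same in every group. The summed level of the D cyclins was 24.3 ± 1.93 CPM per kb in WT cells without cholesterol and 20.0 ± 1.12 with it. In Trem2-/- cells it was 8.91 ± 1.19 without and 9.65 ± 1.13 with it. Ccnd3 made up 36.4% of the sum in WT non-foamy and 40.1% in WT foamy cells, and 59.9% and 55.4% in the Trem2-/- groups. Ccnd2 made up 23.1% and 21.2% in WT and 8.10% and 9.15% in Trem2-/- cells. Ccnd1 made up 40.5% and 38.7% in WT and 32.0% and 35.4% in Trem2-/- cells. At these lengths Ccnd3 had the highest mean share in both Trem2-/- groups and, by a small margin, in WT foamy cells, as a description with no test.

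**Figure D3:**
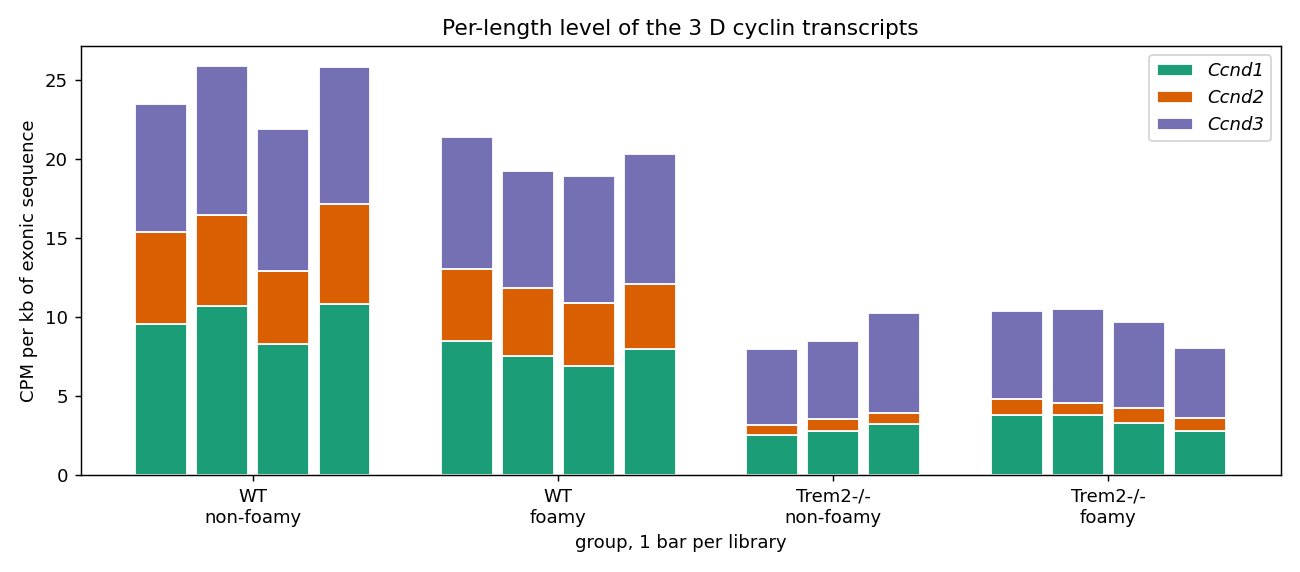
Per-length level of Ccnd1, Ccnd2 and Ccnd3 (vertical axis, CPM per kb of exonic sequence, stacked from 0), 1 bar per library in 4 groups. Bars total 21.9 to 25.8 in WT non-foamy and 7.97 to 10.2 in Trem2-/- non-foamy libraries, with Ccnd3 the largest part in every Trem2-/- library.

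The kinase and inhibitor transcripts changed less in makeup. Cdk4 was 96.3 to 96.9% of the summed Cdk4 and Cdk6 level in the means of all 4 groups. The 4 inhibitor genes summed to 90.5 ± 5.49 CPM per kb in WT cells without cholesterol and 78.6 ± 2.65 with it, and in Trem2-/- cells to 75.5 ± 2.59 without and 79.6 ± 5.86 with it. By merged exon length Cdkn2a was the largest share throughout, from 60.3% in Trem2-/- non-foamy to 65.6% in WT non-foamy cells. Cdkn1b was 13.8% and 8.16% in those groups, again with no test. These are transcript levels only, and in bulk RNA fewer cells of a kind and less RNA per cell cannot be told apart.

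Downstream of the switch, the genes that E2F factors drive at the start of DNA replication were lower in the Trem2-/- line throughout. All 20 of the listed S-phase targets passed the test as lower, both without cholesterol (median log2 fold change −1.07) and with it (median −0.73), against 22.6% and 15.9% of all tested genes called lower. Rrm2, a subunit of ribonucleotide reductase, fell from 44.0 ± 2.80 CPM in WT non-foamy to 13.8 ± 1.08 CPM in Trem2-/- non-foamy cells (log2 fold change −1.67). Mcm2 and Mcm3, parts of the replicative helicase, had −1.55 and −1.36.

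The summed level of the 20 targets was 2790 ± 25.6 CPM in WT cells without cholesterol and 2502 ± 107 with it, and in Trem2-/- cells 1449 ± 42.0 without and 1547 ± 50.1 with it. Cholesterol lowered 2 of them in WT cells, among them Rrm2 (−0.29, edgeR adjusted p = 0.0434), and 0 in Trem2-/- cells, against 1.14% and 0.0351% of all tested genes called lower. The interaction was above 0 and passed the test for 4 of them, among them Rrm2 (0.49), Tyms (0.50) and Tk1 (0.51), against 1.99% of all tested genes called higher. The 2 calls in WT cells became 0 without both WT libraries numbered 3 and also without WT foamy library 1, and Mcm7 joined the interaction calls without Trem2-/- foamy library 4.

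Cyclins that act after the D cyclins were lower as well. All 8 genes of the E and A cyclin and CDK2 list were lower in Trem2-/- non-foamy cells (median −0.75), and 7 of 8 were lower in the foamy state (median −0.38), against 22.6% and 15.9% of all tested genes called lower. Ccne1 and Ccne2, the E cyclins that activate CDK2, had log2 fold changes of −1.42 and −1.29 without cholesterol and −0.55 and −0.89 with it. The exception in foamy cells was Cks2 (−0.01). Skp2, which targets p27 for degradation, was −0.24 and −0.21. In WT cells cholesterol lowered Ccna2 (−0.24, edgeR adjusted p = 0.0436), against 1.14% of all tested genes called lower, and the interaction was called for Ccne1 (0.87) and Cks1b (0.44), against 1.99% called higher. The calls of Ccna2 and Cks1b were lost without WT foamy library 1.

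The 11 mitotic markers were all lower in the Trem2-/- line, with medians of −0.72 without and −0.32 with cholesterol, against the same shares of 22.6% and 15.9% called lower over all tested genes. Cdc20, an activator of the anaphase-promoting complex, changed most among them without cholesterol (−0.96). In WT cells cholesterol lowered 6 of the 11 (Aurka, Bub1, Ccnb1, Cdc20, Cdk1 and Top2a), against 1.14% of all tested genes called lower. Without WT foamy library 1 only 2 of the 6 calls, Aurka and Cdk1, were made. In Trem2-/- cells it lowered 0, against 0.0351% of all tested genes. The interaction was called for 4 (Aurka, Ccnb1, Cdc20 and Cdk1), all above 0, against 1.99% of all tested genes. These lists and the D cyclins come from the same libraries, and whether the share of dividing cells differed was not tested.

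Partners of RB1 that were called were mostly lower, while others were not called. Of 11 tested pocket protein, E2F and DP genes, 6 were lower and 1 higher in Trem2-/- non-foamy cells, and 5 were lower and 0 higher in foamy cells. The shares of all tested genes called lower and higher were 22.6% and 21% without cholesterol and 15.9% and 14.3% with it. E2f8 (−1.03), Tfdp1 (−0.86), Rbl1 (−0.84), which encodes the pocket protein p107, and E2f4 (−0.80) led the lower ones, and Tfdp2 (0.22) was the higher one, a call lost without both WT libraries numbered 3. Rbl2, which encodes p130, did not pass the test (0.08). E2f7 was at 0. Of 8 DREAM and MuvB genes, 4 were lower in both conditions (Mybl2, Foxm1, Lin54 and Rbbp4), led by Mybl2 (−1.02 and −0.73), and Lin37 was higher in non-foamy cells (0.49). Without both WT libraries numbered 3, Lin37 was called higher in foamy cells too.

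**Figure D4:**
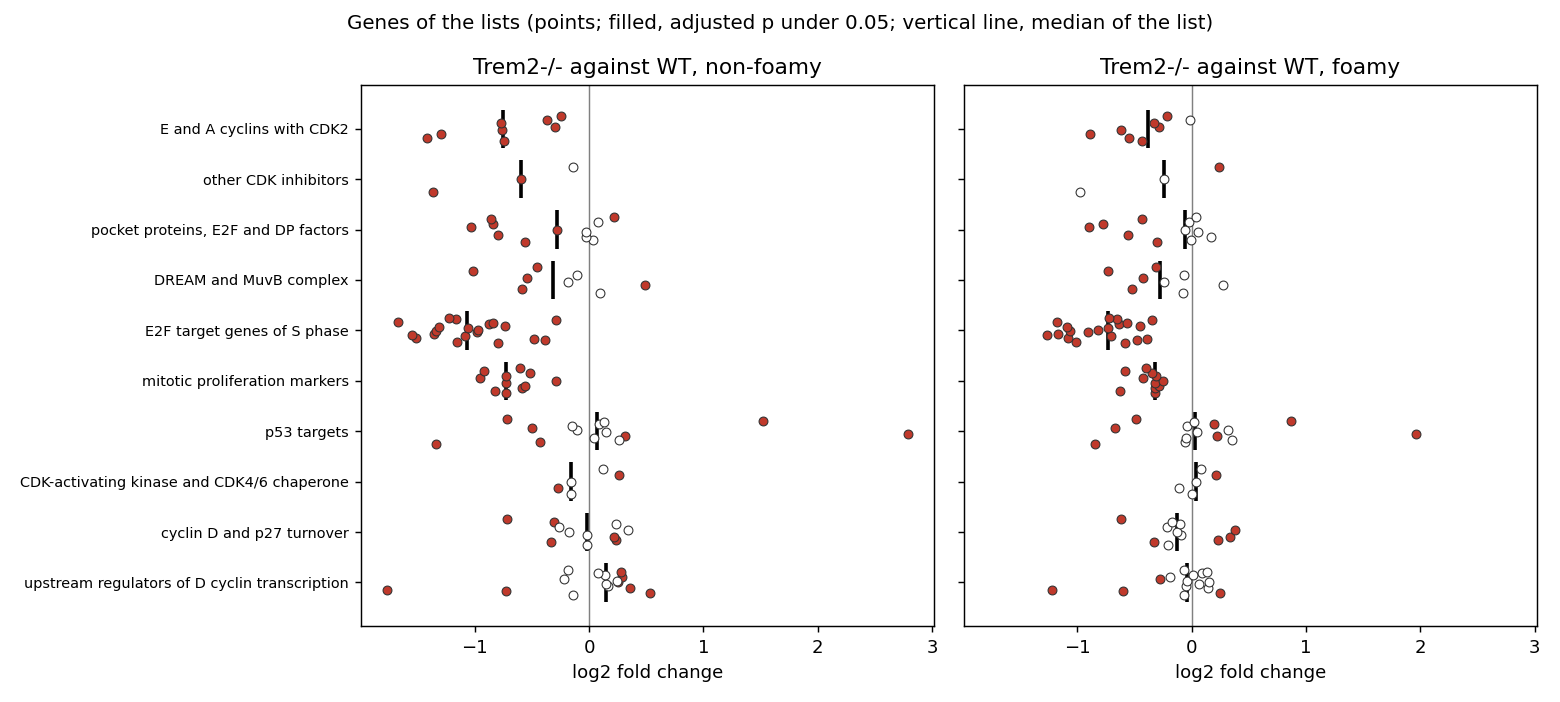
Log2 fold change of Trem2-/- against WT cells (horizontal axis) for each tested gene of 10 lists around the switch, without cholesterol (left) and with it (right); points are genes, filled where the adjusted p is under 0.05, and vertical lines are list medians. The S-phase list has all 20 points filled and below 0 in both panels, with medians of −1.07 and −0.73, while the lists of p53 targets, turnover genes and upstream regulators have points on both sides of 0.

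Of the other CDK inhibitor genes 3 were tested. Cdkn2d, which encodes p19 of the INK4 family, was 12.6 ± 1.003 CPM in WT and 8.34 ± 0.98 CPM in Trem2-/- non-foamy cells (log2 fold change −0.60, s.e. 0.11, edgeR adjusted p = 0.000154). Cdkn2b, the neighbour of Cdkn2a, was under 1 CPM on average in all 4 groups. Its non-foamy log2 fold change was −1.36 (s.e. 0.55, edgeR adjusted p = 0.0475). The WT non-foamy libraries had 28, 11, 10 and 66 counts and the Trem2-/- non-foamy libraries 12, 4 and 12. WT library 4 thus stood far above the others, and the groups overlapped. Cdkn1c was too low to test, and Cdkn3 was higher in foamy Trem2-/- cells only by a small margin (0.24, edgeR adjusted p = 0.0494), a call lost without WT foamy library 1 or Trem2-/- foamy library 4. Without WT foamy library 1, Cdkn2d was called lower in foamy cells as well.

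Among genes that p53 activates, the group to which Cdkn1a belongs, calls went in both directions. In each condition 7 of the 14 tested were not called, and the non-foamy calls were near the shares over all tested genes. Of 14 tested, 3 were higher and 4 lower in Trem2-/- non-foamy cells, against 21% and 22.6% of all tested genes, and 4 were higher and 3 lower in foamy cells, against 14.3% and 15.9%. Gadd45a, a stress gene, was 0.68 ± 0.10 CPM in WT and 4.67 ± 0.44 CPM in Trem2-/- non-foamy cells (log2 fold change 2.79, s.e. 0.21), and Trp53inp1 had 1.52. Aen (−1.34), Zmat3 (−0.72), Plk2 (−0.50) and Bax (−0.43) were lower. Mdm2, the p53 inhibitor and itself a target, did not pass the test (0.15), though it did without both WT libraries numbered 3. In foamy cells the calls of Ccng1, Sesn1 and Zmat3 were lost without WT foamy library 1, which left 2 higher and 2 lower. They were also lost without Trem2-/- foamy library 4, where Bbc3 was gained, for 3 higher and 2 lower.

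For genes that govern the turnover of the D cyclins and p27, calls also went both ways. Of the 11 tested, 6 were not called in each condition, and the non-foamy calls were near the shares over all tested genes. Of 11 tested, 2 were higher (Cul4a, 0.23, and Cul4b, 0.22) and 3 lower (Usp2, −0.72, Cul1, −0.33, and Skp1a, −0.31) in Trem2-/- non-foamy cells, against 21% and 22.6% of all tested genes. In foamy cells 3 were higher and 2 lower, against 14.3% and 15.9%. Usp2 removes ubiquitin from cyclin D1 and stood at 3.92 ± 0.64 and 2.40 ± 0.68 CPM in the non-foamy groups. Its call in foamy cells was lost, and Skp1a was called lower in its place, without WT foamy library 1 or Trem2-/- foamy library 4. Fbxo4, higher in foamy cells beside Cul4a and Cul4b, was lost without WT foamy library 1, and Fbxw7 was added as lower in non-foamy cells without both WT libraries numbered 3. Ambra1, a cyclin D receptor of the CUL4 ligase, did not pass the test (−0.02). Of the 5 genes for the CDK-activating kinase and the CDK4 chaperones, Hsp90ab1 was higher (0.26) and Cdc37 lower (−0.27) in non-foamy cells. The shares over all tested genes were again 21% and 22.6%. In foamy cells Hsp90ab1 was higher (0.21, edgeR adjusted p = 0.00959) and Cdc37 did not pass (−0.11, edgeR adjusted p = 0.167), against 14.3% and 15.9%.

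Among 15 tested upstream regulators of D cyclin transcription, 5 were higher (Ctnnb1, Foxo1, Stat5b, Rela and Junb) and 2 lower (Fos and Ets2) in Trem2-/- non-foamy cells, against 21% and 22.6% of all tested genes. Fos, a growth-factor-induced AP-1 subunit, was 2.89 ± 0.54 CPM in WT and 0.85 ± 0.36 CPM in Trem2-/- cells (log2 fold change −1.76, s.e. 0.32). Ctnnb1, which encodes beta-catenin, was 424 ± 2.29 and 616 ± 21.2 CPM (0.54, s.e. 0.06). In foamy cells Ctnnb1 was higher (0.25) and Fos (−1.22), Ets2 (−0.60) and Nfkb1 (−0.28) were lower, 1 and 3 of the 15 against 14.3% and 15.9% of all tested genes. Without both WT libraries numbered 3 the calls of Foxo1 and Rela in non-foamy cells were lost and Nfkb1 was gained as lower, which made 3 higher and 3 lower. The calls of Ets2 and Nfkb1 in foamy cells were lost without WT foamy library 1 or Trem2-/- foamy library 4, and Junb was gained as higher without the latter. Endogenous Myc averaged 0.095 CPM over the 15 libraries, and Egr1 and Ets1 were at 0.

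Genes whose profile over the 15 libraries was most like that of each D cyclin were found by the root mean square difference of log2 CPM after each gene's own mean was removed, as a description. Nearest to Ccnd1 were Mcm2 (0.113), Uhrf1 (0.139) and Slco4a1 (0.158). Nearest to Ccnd2 were Dusp6 (0.331), Marcksl1 (0.366) and Lgals3bp (0.367). Genes averaging under 1 CPM were left out of the ranking. The measure depends on the size of the changes as well as on their pattern, and Ccnd2 changed most of the D cyclins. The values therefore cannot be compared between cyclins as closeness of tracking. Nearest to Ccnd3 were H2ax (0.096), Eif6 (0.103) and Isyna1 (0.103). Dusp6, a phosphatase of the ERK kinases, went from 4.50 CPM in WT non-foamy to 0.394 CPM in Trem2-/- non-foamy cells.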

How the data were processed

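The authors deposited 1 table of raw read counts per gene for each of 15 BV2 libraries, made with the CHURP pipeline (Trimmomatic, HISAT2, SAMTools and featureCounts) on GRCm38 with Ensembl release 102. The strand setting and the handling of multi-mapped reads are not given in the sources used here. The study's methods name DESeq2; here edgeR 4.0.16 in R 4.3.3 was the main test, with DESeq2 1.42.0 as an alternative.

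Genes were kept with edgeR's filter (minimum count 10), which left 14237 genes and 99.97% of the counts. Libraries were scaled by TMM (factors 0.918 to 1.11) and fitted together, with 1 mean per group, by the quasi-likelihood test (biological coefficient of variation 10.2%). Genotype comparisons within each treatment, the response within each genotype and their interaction were tested, with Benjamini-Hochberg adjustment over all tested genes and a threshold of 0.05. Standard errors are the log2 fold change divided by the root of F. Total counts of 23538963 to 41683825 gave each of the 10 genes at least 189 counts in every library. No pair of libraries of a group agreed within sampling noise (chi-square per gene 5.95 to 45.2 over 21 pairs).

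Members and lists were chosen with earlier results of these data known. Named are Trem2, all members, up to 4 called genes of largest change per list or any of 5 or fewer counted, and the 3 genes most like each D cyclin; Kdr, Skp2, Rbl2, Mdm2, Ambra1 and overlapping genes were chosen after their values were seen. Some listed genes are not reported here by name. Levels per length use GENCODE M21 exonic bases, merged over all annotated transcripts of a gene and matched to 99.5% of gene IDs. Skp1 was matched as Skp1a. Alternatives were other scalings, filters, DESeq2, fewer groups, a replicate block and leaving out libraries; leaving out both WT libraries numbered 3, and recounting the lists without libraries that stood apart, were chosen after seeing the data. The fit was tested on simulated data.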

Additional observations from a re-analysis of the deposited data

Results flagged for a closer look

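In 5 of 30 groups of 4 libraries examined for the 10 genes, 1 library lay far from the other 3 by Dixon's criterion at 95%, which chance meets in about 1 of 20 groups. Cdk4 was 371 CPM in WT non-foamy library 3, above a nearest value of 333 CPM, and 304 CPM in WT foamy library 1, below 319 CPM. Cdkn1a was 52.5 CPM in WT foamy library 3, below 56.2 CPM. Cdkn1b was 35.6 CPM in WT non-foamy library 2, above 32.9 CPM, and Cdkn2a was 63.8 CPM in WT foamy library 4, above 58.1 CPM.

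The response to cholesterol differed between the genotypes by the interaction test for 3 genes, with log2 differences (Trem2-/- minus WT) of 0.62 for Ccnd1, 0.72 for Ccnd2 and 0.44 for Cdkn1a.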

How the results depend on the processing

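Of 840 values of the 10 genes under alternatives, 774 kept their direction and side of the threshold, 28 lost a call, 9 gained one and 29 changed sign, none of these 29 in a called comparison. The cause was not tested for any of them. The calls of Ccnd1, Ccnd2, Ccnd3 and Cdk6 in both genotype comparisons held under every alternative run. All called genes in the WT response were 399, and 896 with DESeq2, 607 with no filter on low counts, 144 with only the groups compared and 146 (without WT foamy library 2) to 526 as single libraries were left out, with 188, 220 and 243 without WT non-foamy libraries 1 and 4 and WT foamy library 1. In the Trem2-/- response they were 20, and 54 with DESeq2, 61 with no filter and 10 (without Trem2-/- non-foamy library 1) to 18 with single libraries left out. For the interaction they were 518, and 968 with DESeq2 and 201 (without Trem2-/- non-foamy library 1) to 661 with single libraries left out. Members called in the WT response were 4 with DESeq2, 1 with total counts alone and 1 to 3 with single libraries left out, and for the interaction 1 to 4.

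Values that changed sign were uncalled. In the Trem2-/- response these were Ccnd3 (−0.0016 with only the groups compared; −0.0742 to 0.14 with single libraries left out), Cdk6 (0.0032 with total counts alone; −0.0582 to 0.0355) and Rb1 (0.0016 with total counts alone; −0.0680 to 0.0269). In foamy Trem2-/- against WT cells they were Cdkn1a (−0.12 with total counts alone, −0.0033 with no filter, −0.0219 without both WT libraries numbered 3; −0.0419 to 0.0562), Cdkn2c (−0.0057) and Rb1 (−0.0376, both with total counts alone) and Cdkn2a (−0.0729 to 0.0415). With single libraries left out, the WT responses of Cdk6 (−0.17 to 0.0029) and Cdkn2c (−0.0926 to 0.0388) and the interaction of Cdk6 (−0.0096 to 0.16) also did.

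Deviations of samples of the same number from their group means had correlations of −0.0885 to 0.118, the highest between the WT libraries numbered 3. Samples of different numbers were not compared in this way, so these values cannot decide whether the numbers pair the samples. With the number as a replicate block the interaction gave 294 called genes, Ccnd1 missed the threshold there (edgeR adjusted p = 0.0621), and Cdk6 had 0.0011 in the Trem2-/- response.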
